A study of Mus musculus with 18 samples.

Results

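The genes described here are 6 nuclear genes for subunits, a protease and a binding partner of the mitochondrial respiratory chain: Ndufa4 and Ndufa4l2, Cox4i1 and Cox4i2, Lonp1 and Higd1a. They were chosen by symbol, and are 6 of the 14804 genes with values in at least 1 of the tables for mouse embryonic stem cells (ESCs), trophoblast stem cells (TSCs) and extra-embryonic endoderm (XEN) cells. The ESC table held all 6 genes. The TSC table held 5 (all but Cox4i2), and the XEN table held 4 (all but Ndufa4l2 and Cox4i2). Every gene that was in a table also passed the filter on low values used here.

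RNA-seq of whole cultures was made in normoxia (20% oxygen) and on day 2 (acute) and day 7 (prolonged) of hypoxia (2% oxygen), with 2 biological replicates per condition, 6 libraries per cell type and 18 in all. ESCs of the E14 line were grown on gelatin in serum with LIF. TSCs were grown on feeder cells with FGF4 and heparin, and XEN cells on gelatin in medium conditioned by feeders. No genotype or drug distinguished the groups. The columns labelled day 0 were read as normoxia, and nothing in the labels says that libraries with the same replicate number were grown together. The libraries were therefore not paired in the main fit. Its p-values set a difference against the spread between the 2 cultures of a condition. That spread was pooled over the conditions of a cell type and moderated over all genes.

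Complex IV (cytochrome c oxidase) passes electrons from cytochrome c to oxygen at the end of the respiratory chain. NDUFA4 was first assigned to complex I and is now counted as a subunit of complex IV, and COX4 is among the core nuclear-encoded subunits of the same complex. Each has a paralog, NDUFA4L2 and COX4-2, that is known to be induced in low oxygen in several cell types through hypoxia-inducible factors (HIFs). LONP1 is the ATP-dependent protease of the mitochondrial matrix, and its induction by HIF-1 is known to speed the breakdown of COX4-1 as COX4-2 rises. HIGD1A is a small inner membrane protein that binds complex IV and is known as a hypoxia-induced gene.

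In the GENCODE annotation of build GRCm38, Ndufa4 (ENSMUSG00000029632) lies at chr6:11900292-11907497 on the minus strand and Ndufa4l2 (ENSMUSG00000040280) at chr10:127514967-127517154 on the plus strand. Cox4i1 (ENSMUSG00000031818) lies at chr8:120668222-120674207 and Cox4i2 (ENSMUSG00000009876) at chr2:152754173-152765037, both on the plus strand. Lonp1 (ENSMUSG00000041168) at chr17:56614297-56626887 and Higd1a (ENSMUSG00000038412) at chr9:121848563-121858362 are on the minus strand. No pair of isoform genes shares a chromosome.

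HIFs bind DNA at a short core, searched here as ACGTG or GCGTG on either strand, in the 250 bases before the transcription start in RefSeq promoters of build GRCm38.p6. That table held 3 of the 6 genes, Ndufa4, Lonp1 and Higd1a. The RefSeq starts are not those of the GENCODE genes above. The RefSeq start of Lonp1 lies 16 bases before the GENCODE start, while that of Ndufa4 lies 47 bases and that of Higd1a 566 bases inside the GENCODE gene. The Higd1a window is thus wholly within the GENCODE gene and is not printed. The Ndufa4 and Lonp1 sequences are shown, up to the GENCODE start where that comes first, because they differ in these letters. Each is written 5′ to 3′ on the minus strand, the strand of its gene, with matches in capitals (CACGT and CACGC are the opposite-strand forms).
Ndufa4 chr6:11907498-11907700: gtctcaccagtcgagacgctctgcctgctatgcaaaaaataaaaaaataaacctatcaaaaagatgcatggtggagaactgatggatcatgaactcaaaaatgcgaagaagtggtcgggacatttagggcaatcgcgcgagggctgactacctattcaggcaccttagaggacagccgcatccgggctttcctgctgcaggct
Lonp1 chr17:56626904-56627153: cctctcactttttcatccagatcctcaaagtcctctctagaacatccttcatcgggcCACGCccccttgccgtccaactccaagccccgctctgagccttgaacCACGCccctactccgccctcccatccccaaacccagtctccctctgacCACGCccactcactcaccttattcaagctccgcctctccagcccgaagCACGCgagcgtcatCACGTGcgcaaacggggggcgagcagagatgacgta

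The Ndufa4 window had 0 matches and the Lonp1 window 6. Of those 6, 4 were CACGC, and the other two overlapped as the palindrome CACGTG at 36 bases before the RefSeq start. The Higd1a window had 2 matches, GCGTG at 70 and again at 66 bases before the RefSeq start, both inside the GENCODE gene. Among 32817 RefSeq promoters of the same length, 38.6% held at least 1 match. ACGTG was in 16.6% of them and GCGTG in 28.1%. A match of these letters is a description of the sequence only.

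All levels are in TPM, the deposited unit, in which the values of a library sum to 1e+06. Multiplied by gene span (start to end, with introns), the deposited TPM gave whole multiples of a step in each library, within 0.05 for 98.7% to 98.9% of values, against 9.68% to 10.5% with summed exon length. The authors' TPM were thus scaled by span, and whole reads can be recovered from them. Libraries held 35592641 to 75204029 such reads. Levels of a gene can be compared between libraries on the deposited scale, while levels of different genes are compared here only as TPM recomputed from those reads with exon length. A marker of each cell type is given first. In the ESC table Pou5f1 was between 1568 and 2009 TPM, in the TSC table Cdx2 was between 35.1 and 169 TPM, and in the XEN table Gata4 was between 159 and 197 TPM. Not all markers were confined to their cell type. The ESC marker Klf4 was at 326 to 442 TPM in ESCs and 623 to 1193 TPM in XEN cells, and Sox2 reached 1104 TPM in TSCs. Of 5 ESC markers, the 4 in the TSC table (all but Pou5f1) summed to 815 to 849 TPM in normoxic TSCs. Their sum was 1219 to 1261 TPM on day 2 and 243 to 284 TPM on day 7. The sum over 5 TSC markers (Cdx2, Eomes, Elf5, Tfap2c and Gata3) was 1077 to 1079 TPM in normoxic TSCs. It was 910 to 1180 TPM on day 2 and lower, 647 to 729 TPM, on day 7. Each table was normalized on its own, so no level or change was tested between cell types.

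Differential expression (DE) required a fold change above 1.5 and, in limma's moderated test on log2(TPM + 0.5), a p of at most 0.1 after Benjamini-Hochberg adjustment over all genes tested. Fold changes on this scale are understated for low genes. Of the 6 genes, only Ndufa4l2 was DE in any of the 9 comparisons of this fit, and only in ESCs on day 7 against normoxia, with Higd1a joining it there when only the 4 libraries compared were fitted. For a single gene, 2 libraries against 2 allow an exact permutation p of 0.333 at the lowest. That lowest value is reached when the libraries of 2 groups do not overlap. The share of all genes that separate in this way was not computed. Separation of libraries is therefore given below as a description of values, not as evidence of a change. In bulk RNA, a change in the share of cells that express a gene and a change in the level per cell cannot be told apart.

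**Figure D1:**
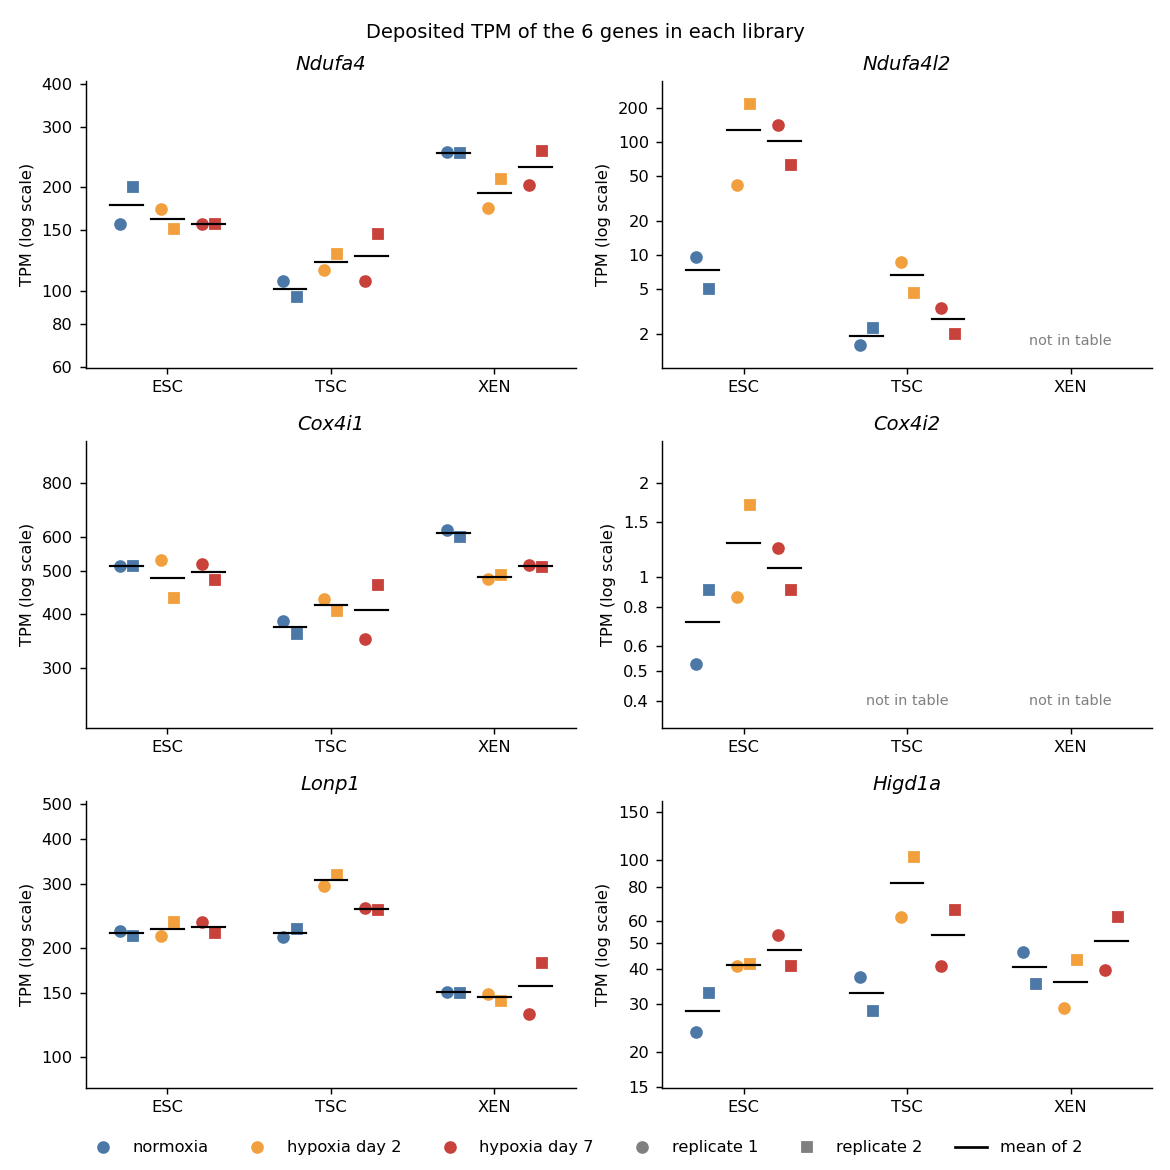
Deposited TPM (log axis) of the 6 genes in each library, by cell type. Circles are replicate 1, squares replicate 2, colours the condition and black lines the mean of the 2 libraries. Ndufa4l2 in ESCs went from 9.71 and 5.03 TPM in normoxia to between 41.5 and 217 TPM in the 4 hypoxic libraries.

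Ndufa4l2, the paralog of Ndufa4 and a textbook HIF target, had the largest fitted increase of all 12271 genes tested in ESCs on both days of hypoxia. It stood at 9.71 and 5.03 TPM in normoxia, 41.5 and 217 TPM on day 2 and 141 and 63.1 TPM on day 7. The 4 hypoxic libraries were all above both normoxic ones. Mean TPM was 7.37 ± 3.31 (SD, n = 2) in normoxia, 129 ± 124 (SD, n = 2) on day 2 and 102 ± 55.1 (SD, n = 2) on day 7, which is 17.5 and 13.9 times the normoxic mean. These levels rest on 67 and 49 reads in normoxia and on 444 to 2455 reads in hypoxia.

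On day 7, Ndufa4l2 rose in ESCs by a log2 fold change of 3.66 (SE 0.68, limma adjusted p = 0.0813), in a comparison in which 0.758% of all genes were DE (88 higher and 5 lower). On day 2 its log2 fold change was 3.67 (SE 0.68, limma adjusted p = 0.363), and 0% of all genes were DE. On that day 620 of the 12271 genes had an unadjusted p under 0.05 in limma, close to the number this cut-off gives when no gene differs. Limma-voom on the recovered reads also gave 0 DE genes. The paper, with edgeR and the same thresholds, did report DE genes in ESCs on day 2. The 0% therefore holds for the fits used here. Day 7 and day 2 differed by a log2 fold change of -0.01 (SE 0.68, limma adjusted p = 0.99995), in a comparison with 0.179% of genes DE. The 2 day 2 libraries lay 5.24-fold apart, a gap of 2.37 on the log2 scale that was the 6th widest of all 12271 genes, where the median gene had a gap of 0.23. On day 7 the gap was 1.15 and in normoxia 0.88. The day 7 call was lost without either normoxic library or either day 7 library, with log2 fold changes between 3.08 and 4.24 and adjusted p between 0.133 and 0.792. It was also lost under the replicate block (limma adjusted p = 0.229) and under voom (adjusted p = 0.275). Without day 2 replicate 1, the day 2 change was 4.86 with an adjusted p of 0.00481 and passed the threshold, in a fit in which 4.02% of all genes did (493 of 12271). Day 2 is then a lone library, assumed to vary like the other groups.

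The same hypoxic libraries that were high for Ndufa4l2 were high for a list of 12 hypoxia-induced genes fixed for comparison (among them Pdk1, which restrains pyruvate entry into the citrate cycle, and Bnip3, a mitophagy receptor). The mean log2 difference of the list from normoxia was 0.53 and 1.22 after 2 days and 1.21 and 0.59 after 7 days, by replicate. Ndufa4l2 differed from its normoxic mean by 2.48 and 4.86 after 2 days and by 4.24 and 3.08 after 7 days. The day 2 replicate 2 and day 7 replicate 1 libraries thus stood highest for both. None of the 12 listed genes was DE in ESCs on either day in the main fit, although 11 of 12 had a higher value on each. Their medians were 0.98 (day 2) and 0.95 (day 7) on the log2 scale against 0.01 and 0.02 for all genes. On day 7, 5 of 12 were DE with only the 4 libraries compared, as were 2.61% of all genes. With exon-length TPM 4 were DE (1.02% of all genes), with voom 2 (0.905%) and with the replicate block none. On day 2 none was DE in any of these fits, which kept both day 2 libraries. The day 2 result of the list, like that of Ndufa4l2, depended on these libraries. The median log2 fold change of the list was 1.32 without day 2 replicate 1 and 0.63 without day 2 replicate 2.

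**Figure D2:**
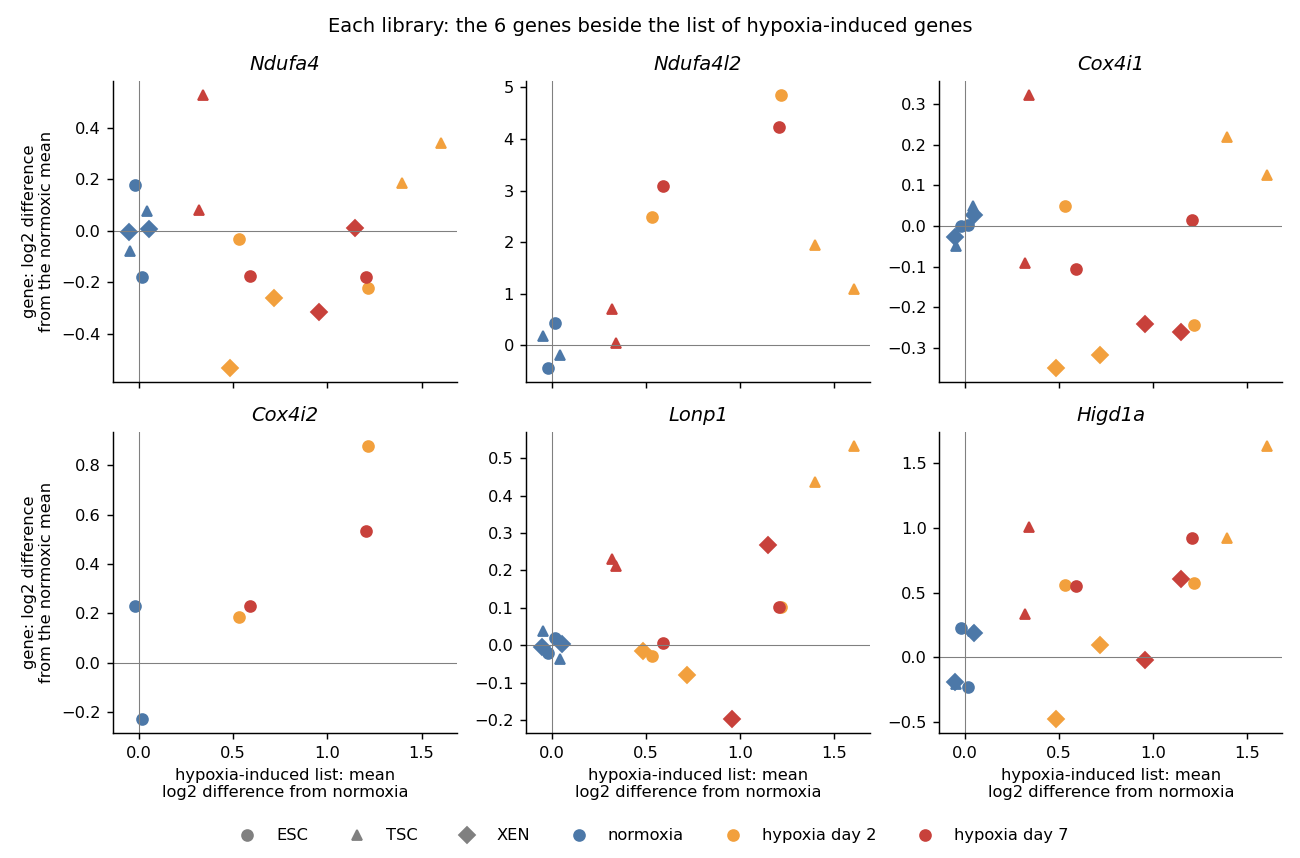
Each point is a library, shaped by cell type and coloured by condition. The horizontal axis is the mean log2 difference of the hypoxia-induced list from the normoxic mean of the cell type, the vertical axis the same for the named gene. In ESCs the libraries at 1.22 and 1.21 on the list are those at 4.86 and 4.24 for Ndufa4l2.

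In TSCs, Ndufa4l2 was expressed at a low level. Its levels were 1.61 and 2.24 TPM in normoxia, 8.72 and 4.60 TPM on day 2 and 3.41 and 1.99 TPM on day 7. Day 2 lay above normoxia in both libraries, and day 7 overlapped with normoxia. The reads behind these values were 12 and 18, 76 and 40, and 29 and 18. The day 2 log2 fold change was 1.51 (SE 0.38, limma adjusted p = 0.224, with 0.2% of all genes DE), and the gene was placed 121st from the highest of 12481. On day 7 the log2 fold change was 0.37 (SE 0.38, limma adjusted p = 0.753, with 0.385% of genes DE). Between day 2 and day 7 it was -1.14 (SE 0.38, limma adjusted p = 0.112), short of the threshold in a comparison where 16.2% of all genes were DE. That last difference passed the threshold when either normoxic library or day 2 replicate 2 was left out (adjusted p between 0.086 and 0.0965), in fits with 12.2% to 17.7% of all genes DE. Without day 2 replicate 2, the lone day 2 library is assumed to vary like the other groups.

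Ndufa4, the partner isoform, was expressed at a high and narrow range in all 3 cell types and was DE in none of the 9 comparisons. In ESCs it was at 156 and 200.1 TPM in normoxia, 173 and 152 TPM on day 2 and 156 and 156 TPM on day 7. The hypoxic ESC libraries overlapped with the normoxic ones, with log2 fold changes of -0.13 (SE 0.15) and -0.18 (SE 0.15). In TSCs it was at 107 and 95.8 TPM in normoxia, 115 and 128 TPM on day 2 and 107 and 146 TPM on day 7. The TSC values of both hypoxic days lay just above those of normoxia, with log2 fold changes of 0.26 (SE 0.21, limma adjusted p = 0.626) and 0.30 (SE 0.21, limma adjusted p = 0.661). In XEN cells it was at 253 and 251 TPM in normoxia, 174 and 211 TPM on day 2 and 203 and 254 TPM on day 7. The XEN values were lower on day 2 (log2 fold change -0.40, SE 0.17, limma adjusted p = 0.663) and overlapped with normoxia on day 7 (-0.15, SE 0.17). The share of all genes called DE in XEN cells was 0% at day 2 and 0.11% at day 7. Of the 10894 genes tested there on day 2, 846 had an unadjusted p under 0.05 in limma, and voom also gave 0 DE genes. The paper, with edgeR, did report DE genes in XEN cells on day 2, so this 0% too holds for the fits used here.

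Per exon length, Ndufa4l2 made up a small share of the sum of Ndufa4 and Ndufa4l2 in normoxic ESCs and a larger one in hypoxia. The share was 2.33% and 0.953% in normoxia, then 8.41% and 35.4% after 2 days and 25.7% and 13.4% after 7 days. Ndufa4 remained the more abundant of both in every ESC library, by 42.0 and 104 times in normoxia and by 1.82 times in the day 2 library with the most Ndufa4l2. On the deposited scale the order turned in that library, where Ndufa4l2 took 58.9% of the sum. The span of Ndufa4l2 (2187 bases) is 2.0 times its exon length (1095 bases), while that of Ndufa4 (7205 bases) is 5.22 times its exon length (1381 bases). Shmt2, on the opposite strand, shares 32 of the exon bases of Ndufa4l2. In TSCs the share per exon length was 0.575% and 0.888% in normoxia, 2.82% and 1.36% after 2 days and 1.21% and 0.519% after 7 days, so that Ndufa4l2 stayed a minor transcript in all 6 libraries.

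**Figure D3:**
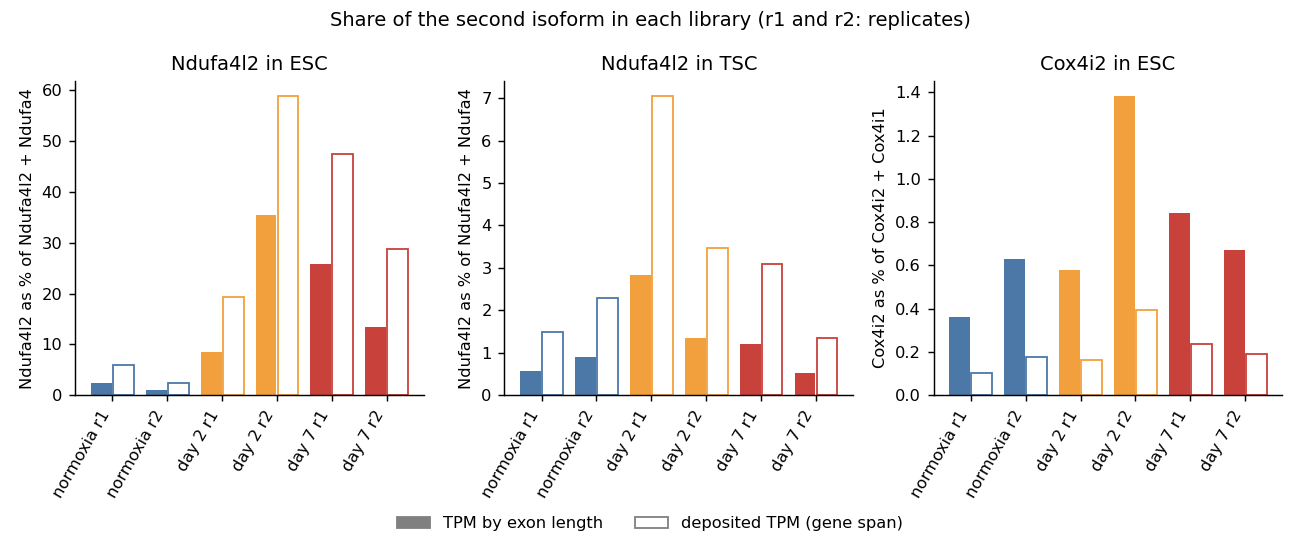
Share (%) of Ndufa4l2 in the sum of Ndufa4l2 and Ndufa4, and of Cox4i2 in the sum of Cox4i2 and Cox4i1, in each library (r1 and r2 are replicates). Filled bars use TPM by exon length and open bars the deposited TPM by gene span. Filled bars for Ndufa4l2 in ESCs run from 0.953% to 35.4%, and those for Cox4i2 from 0.363% to 1.38%.

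Cox4i2, the paralog of Cox4i1 known to be induced by HIF-1, was also low in ESCs. Its levels were 0.525 and 0.909 TPM in normoxia, 0.865 and 1.71 TPM on day 2 and 1.24 and 0.907 TPM on day 7. Both hypoxic days overlapped with normoxia. The libraries held 18 and 44, 46 and 96, and 64 and 34 reads of it, so the 95% exact Poisson interval of the smallest count ran from 10.7 to 28.4 reads. These intervals cover counting error only. The log2 fold change was 0.53 (SE 0.28, limma adjusted p = 0.970) on day 2 and 0.38 (SE 0.28, limma adjusted p = 0.881) on day 7. Per exon length, Cox4i2 made up 0.363% and 0.627% of the sum of the COX4 isoforms in normoxia, 0.576% and 1.38% after 2 days and 0.842% and 0.673% after 7 days. The highest share was in day 2 replicate 2, the library that was also highest for Ndufa4l2.

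Cox4i1, the main COX4 isoform, was the most abundant of the 6 genes in every cell type and was DE in none of the comparisons. In ESCs it was at 515 and 514 TPM in normoxia, 532 and 435 TPM on day 2 and 520.3 and 478 TPM on day 7. Hypoxia and normoxia overlapped, with log2 fold changes of -0.10 (SE 0.14) and -0.04 (SE 0.14). In TSCs it was at 385 and 360 TPM in normoxia, 433 and 406 TPM on day 2 and 349 and 465 TPM on day 7. Only day 2 stood apart from normoxia there, at a log2 fold change of 0.17 (SE 0.20, limma adjusted p = 0.736), and day 7 was at 0.12 (SE 0.20). In XEN cells it was at 623 and 601 TPM in normoxia, 480.4 and 492 TPM on day 2 and 518 and 511 TPM on day 7. Both hypoxic days lay below normoxia in XEN cells, with log2 fold changes of -0.33 (SE 0.13, limma adjusted p = 0.609) and -0.25 (SE 0.13, limma adjusted p = 0.633). Cox4i1 shares 154 of its 1550 exon bases with Emc8 on the opposite strand. Counting by strand is not stated in the sources used here, so reads in that stretch cannot be assigned with certainty.

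Lonp1, the matrix protease, differed little between conditions in ESCs and XEN cells. In ESCs it was at 222 and 216 TPM in normoxia, 215 and 236 TPM on day 2 and 235 and 220.1 TPM on day 7. Both days overlapped with normoxia, and the log2 fold changes were 0.04 (SE 0.12) and 0.05 (SE 0.12). In TSCs it was at 214 and 225 TPM in normoxia, 297 and 318 TPM on day 2 and 258 and 254 TPM on day 7. All 4 hypoxic TSC libraries were above both normoxic ones, and the day 2 libraries were the highest. The log2 fold change in TSCs was 0.49 (SE 0.16, limma adjusted p = 0.303) on day 2 and 0.22 (SE 0.16, limma adjusted p = 0.674) on day 7, and Lonp1 was not DE on either day. In XEN cells it was at 151 and 150.3 TPM in normoxia, 149 and 143 TPM on day 2 and 131 and 181 TPM on day 7. The XEN log2 fold changes were -0.05 (SE 0.18) and 0.03 (SE 0.18).

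Higd1a, the complex IV binding protein, had higher values in hypoxia in ESCs and TSCs but did not pass the threshold in any comparison. In ESCs it was at 23.8 and 32.8 TPM in normoxia, 41.3 and 41.9 TPM on day 2 and 53.2 and 41.2 TPM on day 7. All 4 hypoxic ESC libraries were above both normoxic ones, at 1.47 and 1.67 times the normoxic mean. The log2 fold change was 0.57 (SE 0.19, limma adjusted p = 0.873) on day 2 and 0.74 (SE 0.19, limma adjusted p = 0.232) on day 7. With only the 4 libraries of the day 7 comparison in the fit, Higd1a passed the threshold (limma adjusted p = 0.094), as did 2.61% of all genes (320 of 12271, against 93 with all 6 libraries). In TSCs it was at 37.6 and 28.2 TPM in normoxia, 62.3 and 102 TPM on day 2 and 41.2 and 65.9 TPM on day 7. Again each hypoxic library was above each normoxic one, at 2.5 and 1.63 times the normoxic mean. The TSC log2 fold change was 1.28 (SE 0.33, limma adjusted p = 0.226) on day 2 and 0.67 (SE 0.33, limma adjusted p = 0.547) on day 7. In XEN cells it was at 46.3 and 35.5 TPM in normoxia, 28.9 and 43.3 TPM on day 2 and 39.9 and 62.1 TPM on day 7. The XEN libraries overlapped between all conditions, with log2 fold changes of -0.19 (SE 0.29) and 0.29 (SE 0.29). An antisense gene, Gm47112, covers 683 of the 3040 exon bases of Higd1a, and reads from both cannot be told apart without strand.

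**Figure D4:**
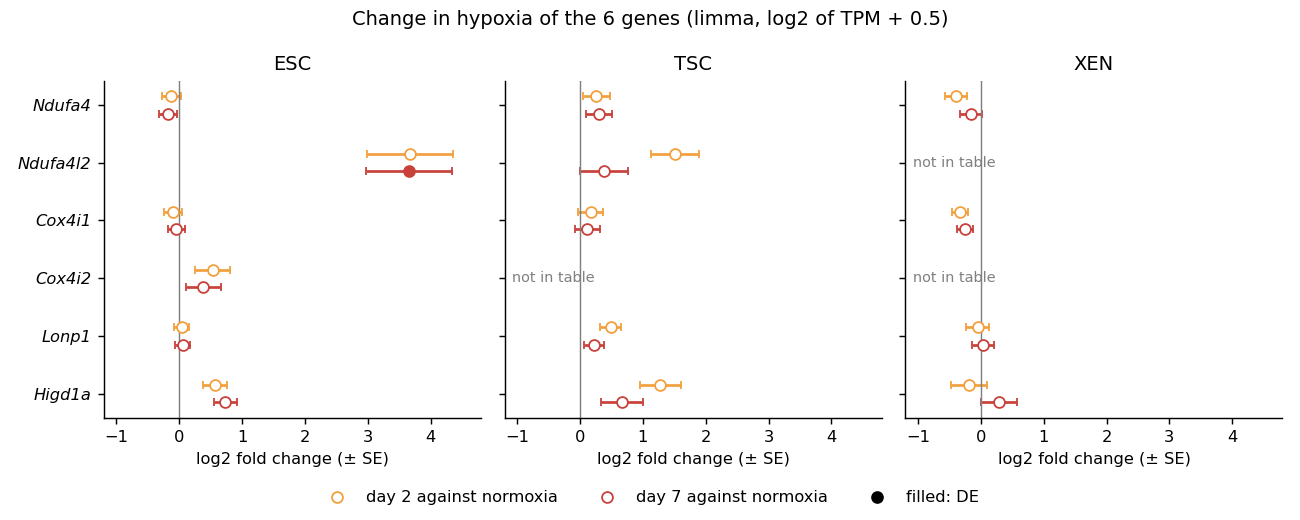
Log2 fold change on log2(TPM + 0.5) with its SE from limma for each gene, on day 2 and day 7 against normoxia. Filled points are DE genes. Ndufa4l2 in ESCs on day 7, at 3.66, is the filled point, and Higd1a in TSCs on day 2 is at 1.28.

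The TSC libraries differed in the RNA of fibroblast genes, listed as markers of the feeder layer. Whether this RNA came from feeder cells or from the TSCs was not tested. A list of 10 fibroblast genes, all present in the TSC table, summed to 1881 and 267 TPM in normoxia, 209 and 967 TPM on day 2 and 443 and 266 TPM on day 7. In ESCs, grown without feeders, 5 of the 10 genes were in the table and summed to between 24.3 and 41.5 TPM. Dcn, Lum, Postn, Prrx1 and Fap had no row. Of that list, Thy1 alone was at 22.0 to 32.5 TPM in ESCs and at 75.1 to 606 TPM in TSCs. In XEN cells 2 of 10 were in the table, at 0.191 to 0.650 TPM. Without the normoxic TSC library that held the most, the day 2 log2 fold changes were 1.49 for Higd1a, 1.32 for Ndufa4l2 and 0.45 for Lonp1, and none was DE. Across all genes the TSC median log2 fold change was -0.18 on day 7 against normoxia and -0.24 on day 7 against day 2. Median-ratio scaling brought these to -0.0013 and 0.02, and the TSC day 7 log2 fold changes against normoxia were then 0.87 for Higd1a, 0.53 for Ndufa4l2, 0.50 for Ndufa4, 0.42 for Lonp1 and 0.31 for Cox4i1, with no DE gene among them. On day 7 against day 2 in TSCs, DE genes were 296 higher and 1723 lower on the deposited scale and 738 higher and 968 lower after that scaling. The log2 fold changes of Higd1a and Lonp1 in that comparison were -0.61 (SE 0.33) and -0.26 (SE 0.16), the second of which became 0.02 with the scaling. In XEN cells, day 7 against day 2 had 0.0367% of genes DE, and the members ranged from 0.08 for Cox4i1 to 0.49 for Higd1a.

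Per exon length, the order of the genes in normoxic ESCs was Cox4i1 (668 ± 12.8 TPM, SD, n = 2), Ndufa4 (313 ± 61.1 TPM), Lonp1 (212 ± 0.110 TPM), Higd1a (30.7 ± 7.54 TPM), Ndufa4l2 (4.93 ± 2.12 TPM) and Cox4i2 (3.34 ± 1.33 TPM). The last pair did not differ beyond its spread. On day 2 the mean of Ndufa4l2, 86.1 ± 82.1 TPM, was above that of Higd1a, 45.0 ± 0.130 TPM, with a spread too wide to place them. On day 7 Ndufa4l2 was at 67.9 ± 36.2 TPM and Higd1a at 50.8 ± 8.75 TPM, again within the spread. In normoxic TSCs the order was Cox4i1 (457 ± 14.2 TPM), Lonp1 (201 ± 10.8 TPM), Ndufa4 (168 ± 10.1 TPM), Higd1a (33.7 ± 6.29 TPM) and Ndufa4l2 (1.23 ± 0.302 TPM). In normoxic XEN cells it was Cox4i1 (729 ± 18.9 TPM), Ndufa4 (406 ± 2.39 TPM), Lonp1 (134 ± 0.502 TPM) and Higd1a (40.7 ± 7.57 TPM).

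The rest of the respiratory chain gave a setting for these values. None of the other complex IV subunits was DE in any of the 6 comparisons with normoxia. Their median log2 fold change at day 2 and day 7 was -0.05 and -0.03 in ESCs (13 tested), 0.39 and 0.08 in TSCs (12 tested) and, with 12 tested, -0.35 and -0.08 in XEN cells. On day 2, a higher value was seen for 10 of 12 in TSCs but for 0 of 12 in XEN cells. Of all genes tested on that day, 56.9% had a higher value in TSCs and 48.9% in XEN cells. Complex I subunits, of which 36 were tested, showed the same order of medians, at -0.04 and -0.03 in ESCs, 0.24 and 0.15 in TSCs but -0.32 and -0.15 in XEN cells, and none was DE. On day 2, a higher value was seen for 30 of 36 in TSCs but for 1 of 36 in XEN cells. The day 2 values of Ndufa4 and Cox4i1 had the sign of these medians in each cell type. For complex IV assembly factors (19 tested) the medians were -0.01 and -0.0003 in ESCs, 0.06 and -0.02 in TSCs but -0.24 and -0.10 in XEN cells. The list of mitochondrial proteases and chaperones (14 tested) also held Lonp2, the peroxisomal Lon protease. Its medians were -0.01 and -0.03 in ESCs, 0.05 and -0.16 in TSCs, with -0.04 and -0.17 in XEN cells. No member of either list was DE. Higd2a, the other HIG1 domain gene in the tables, had log2 fold changes against normoxia between -0.12 and 0.24 and was not DE.

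The hypoxia-induced genes were followed in TSCs and XEN cells as well. In TSCs on day 2, all 12 had a higher value and 4 of them were DE, where 0.2% of all genes were. Among the 4 were Pdk1 with a log2 fold change of 2.47 (limma adjusted p = 0.0191) and Bnip3 with 2.46 (limma adjusted p = 0.0191). The median of the list was 1.39 against 0.07 for all genes. All 4 calls were lost with only the 4 libraries compared and without any of the 4 hypoxic TSC libraries, when 0 genes in all were DE, while the list's median stayed between 1.31 and 1.46. On day 7 in TSCs none was DE and the median was 0.35. From day 2 to day 7 in TSCs, 16.2% of all genes were DE and the median of all genes was -0.24. All 12 listed genes had a lower value on day 7, and 8 of them were DE. These included Pdk1 (-2.44, limma adjusted p = 0.00599) and Bnip3 (-1.77, limma adjusted p = 0.0114). Neither these 8 calls nor the 16.2% of all genes was stable. Both fell when any 1 of the 4 hypoxic TSC libraries was left out, steeply in most of these fits. The median log2 fold change of the list was then -0.92 without day 7 replicate 2 and -1.12 without day 2 replicate 1. It was -0.99 without day 7 replicate 1 and -0.96 without day 2 replicate 2. Over the 11 genes tested in XEN cells, the median was 0.71 at day 2 and 1.02 at day 7, and Egln3, an oxygen-sensing prolyl hydroxylase, rose on day 7 by 2.81 (limma adjusted p = 0.0119, with 0.11% of all genes DE). That call was lost without either day 2 library and with only the 4 libraries compared. In TSCs, mean deposited TPM was highest on day 2, when the list was highest, for Ndufa4l2, Higd1a, Lonp1 and Cox4i1. That of Ndufa4 was highest on day 7. A lower value on day 7 than on day 2 was general in TSCs. The median log2 fold change was -0.34 for the other complex IV subunits and -0.24 for all genes.

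**Figure D5:**
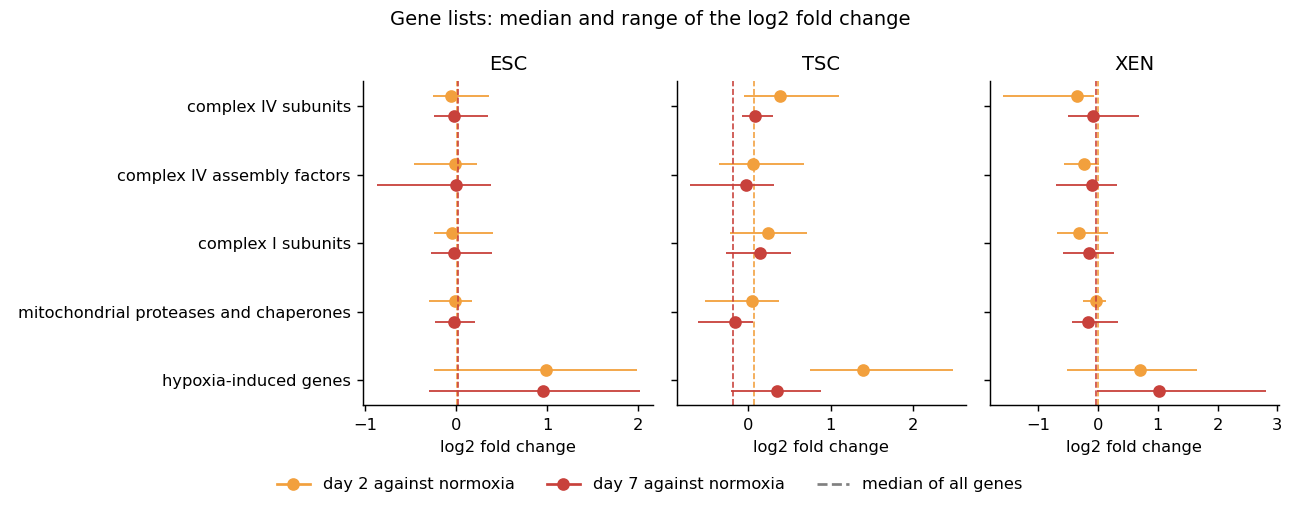
Median (point) and range (line) of the log2 fold change of 5 gene lists on day 2 and day 7 against normoxia in each cell type, with the median of all genes dashed. The hypoxia-induced genes have medians of 0.98 and 0.95 in ESCs, 1.39 and 0.35 in TSCs, with 0.71 and 1.02 in XEN cells, while the respiratory chain lists lie between -0.35 and 0.39.

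Across libraries, with each gene centred in each cell type, the genes whose log2(TPM + 0.5) most resembled Ndufa4l2 were Zscan2 (Pearson r 0.95), Pgm1 (0.93) and Tpi1 (0.92), over 12 libraries and 11286 genes. Ndufa4 itself was at -0.36 with Ndufa4l2. Higd1a was most like Fam162a (0.84), Pgk1 (0.84) and Grhpr (0.82) over 18 libraries and 10080 genes, and its r with Lonp1 was 0.73. Lonp1 was most like Rps6ka6 (0.87), Dnajc22 (0.85) and Smtnl2 (0.83). Ndufa4 was most like Rps13 (0.92), Ndufb5 (0.91) and Sec61g (0.91), and Cox4i1 was most like Atp5j (0.88), Ndufb5 (0.87) and Ndufa9 (0.86). The r between Ndufa4 and Cox4i1 was 0.73. For Cox4i2, with 6 ESC libraries and few reads, the closest were Zdhhc23 (0.995), Kif21a (0.994) and Rad51d (0.985). These values describe likeness among libraries that share conditions and depth.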

How the data were processed

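RNA-seq reads (KAPA RNA HyperPrep, 75-bp paired-end) were trimmed by the authors with cutadapt 2.4, aligned to mm10 with STAR 2.7.5a and counted with featureCounts on GENCODE genes. The authors deposited TPM for each cell type, for protein-coding genes that reached more than 0.4 CPM in 2 or more of its 6 libraries. No fold change or p-value of theirs was used. No value column was left unmapped.

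Whole reads were derived from the TPM in Python 3.11.15 (numpy 2.4.6, pandas 2.3.3) with gene spans of a GENCODE annotation of GRCm38 from a later release than the authors'. Depth was 35592641 to 75204029 reads per library. Genes that exceeded 0.4 TPM in 2 or more libraries were fitted on log2(TPM + 0.5) over the 6 libraries of a cell type with limma 3.58.1 (R 4.3.3), with a mean-variance trend and without a replicate block, and p-values were adjusted by Benjamini-Hochberg over all genes. Scripts were tested on simulated data. Figures were drawn with matplotlib 3.10.9.

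The members, the gene lists and the rule for naming genes (the 6 members, at most 2 DE genes per list, direction and comparison, and the 3 genes most alike to each member) were chosen with earlier results of these data known. Alternatives were other pseudocounts (0.1 and 1), no filter or a TPM minimum of 1, median-ratio scaling, exon-length TPM, voom on recovered reads, no trend, a replicate block, an adjusted p of 0.05, only the 4 libraries compared and each library left out. A block with the day 2 replicate numbers swapped was added after seeing the data. Protein levels were not analysed here.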

Additional observations from a re-analysis of the deposited data

Results flagged for a closer look

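On day 2 of hypoxia, the TSC and XEN libraries of 3 of the genes differed from normoxia in opposite directions, with both hypoxic libraries above both normoxic ones in TSCs and below them in XEN cells. The log2 fold change of Ndufa4 was 0.26 in TSCs and -0.40 in XEN cells. For Cox4i1 it was 0.17 in TSCs and -0.33 in XEN cells. For Lonp1 it was 0.49 (SE 0.16) in TSCs and -0.048 (SE 0.18) in XEN cells, the latter well within its SE. With 2 libraries against 2, full separation in either direction has an exact permutation p of 0.333. The share of all genes that separate in this way was not computed. None of these changes was DE, and the difference between the cell types was not tested, since their tables were normalized separately.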

How the results depend on the processing

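The 6 genes were refitted under 18 alternatives per comparison. Of the resulting fold changes, 760 kept their direction and their side of the threshold, 30 turned direction, 10 gained a call and 10 lost it. In ESCs on day 7 against normoxia, where 1 of the 6 genes was DE, the number of DE genes was 0 with no filter on low values, 0 with median-ratio scaling, 0 with voom on recovered reads, 0 with no mean-variance trend, 0 at an adjusted p of 0.05 and 0 with the replicate block, and 2 (Ndufa4l2 and Higd1a) with the 4 libraries compared, where 320 of all 12271 genes were DE against 93 with 6 libraries. Leaving out a library, which leaves a lone library in its group that is assumed to vary like the others, gave 0 to 2, with 0 for any normoxic or day 7 library and 2 for either day 2 library (322 and 319 genes DE in all). The adjusted p of Ndufa4l2 ran from 0.000707 to 0.792 over these alternatives. In ESCs on day 2 the count was 1 (Ndufa4l2) with the swapped block and 0 to 1 on leaving out a library, with 14 genes DE in all under that block and 493 without day 2 replicate 1. On day 7 against day 2 in TSCs it was 1 (Ndufa4l2) with the swapped block and with the 4 libraries compared (2778 and 2214 genes DE in all), and 0 to 1 on leaving out a library. In the other 6 comparisons no alternative gave a DE member.

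With the replicate block 0 members were DE in any comparison, so the call of Ndufa4l2 in ESCs on day 7 was lost and no other call changed. Deviations of same-numbered libraries correlated at -0.46 to 0.27 across genes and not above 0.1 in every pair of groups, so the numbers were not taken to pair the libraries. Over all genes the block gave 18 DE genes in ESCs on day 7 in place of 93, 3 in place of 25 in TSCs on day 2, 13 in place of 48 in TSCs on day 7 and 43 in place of 12 in XEN cells on day 7. With the day 2 numbers swapped, a choice made after seeing the data, TSCs on day 2 had 326.

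The direction of small differences turned with the scaling. On day 7 against day 2 in ESCs, the log2 fold change was 0.0093 for Ndufa4l2 with voom and -0.0041 for Lonp1 with median-ratio scaling. In TSCs that of Cox4i1 was 0.23 with median-ratio scaling, 0.0074 with exon-length TPM and 0.086 with voom, and that of Lonp1 was 0.021 with median-ratio scaling. The cause was not tested. With deposited TPM in place of exon-length TPM, the log2 ratio of Ndufa4l2 over Ndufa4 ran from -5.31 to 0.52 in ESCs in place of -6.70 to -0.87 and from -6.20 to -3.72 in TSCs in place of -7.58 to -5.11, and that of Cox4i2 over Cox4i1 from -9.94 to -7.99 in place of -8.10 to -6.16, a fixed shift set by the lengths.

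Leaving out 1 library turned the direction of further values, none of them DE. For day 2 against normoxia the ranges in ESCs were -0.31 to 0.053 for Ndufa4, -0.24 to 0.049 for Cox4i1 and -0.028 to 0.10 for Lonp1, and in XEN cells -0.48 to 0.093 for Higd1a. For day 7 against normoxia they were -0.36 to 0.0014 for Ndufa4 and -0.11 to 0.016 for Cox4i1 in ESCs, -0.091 to 0.32 for Cox4i1 in TSCs, and -0.32 to 0.012 for Ndufa4, -0.026 to 0.61 for Higd1a and -0.20 to 0.27 for Lonp1 in XEN cells. For day 7 against day 2 in ESCs they were -0.50 to 0.20 for Cox4i2, -0.15 to 0.044 for Ndufa4, -0.094 to 0.20 for Cox4i1, -0.014 to 0.35 for Higd1a, -1.197 to 1.177 for Ndufa4l2 and -0.050 to 0.081 for Lonp1. In TSCs they were -0.18 to 0.27 for Ndufa4 and -0.26 to 0.15 for Cox4i1, and in XEN cells -0.15 to 0.31 for Lonp1.

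Depth limits Cox4i2 in ESCs (18 to 96 reads) and Ndufa4l2 in TSCs (12 to 76 reads). With 2 libraries per condition, a change had to be large against the spread of each gene to be called, and a value that missed the threshold is not shown to be unchanged.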
